A study of Mus musculus with 12 samples.

Results

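Zbtb16 and 8 further genes of the glucocorticoid response were described in inflamed mouse colon: the receptor gene Nr3c1, the hormone-converting enzymes Hsd11b1 and Hsd11b2, and the hormone-induced genes Fkbp5, Tsc22d3, Per1, Sgk1 and Klf9. They were picked by symbol from a deposited table of 21899 genes, and all 9 were found and passed the filter on low counts that left 14393 genes for testing. The choice was made with the difference between genotypes already known, so that difference is given for these genes as a description. Where a fit over all genes called any of the 9, the call is no test of that gene. Variation among mice of the same genotype played no part in the choice, and relations within genotypes were tested.

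Whole colon was sampled from 12 mice, all of which had received 2.5% dextran sulfate sodium (DSS) for 7 days, a polymer that damages the colonic lining and brings on colitis. In 6 mice (CKO, called knockouts here) Pck1, the gene of the gluconeogenic enzyme phosphoenolpyruvate carboxykinase, was deleted in intestinal epithelial cells, and 6 littermates (WT) were the controls. The labels name neither the promoter that drives the deletion, nor the strain, age or sex of the mice, nor the hour of sampling, and no mice without DSS were used here. RNA came from the whole tissue and not from the epithelial cells in which the gene was deleted.

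Glucocorticoids are steroid hormones of the adrenal cortex, and intestinal epithelium can also make them locally. They bind a receptor encoded by Nr3c1 that is held in the cytoplasm by chaperones, moves to the nucleus and switches on genes that carry its binding element, while dampening inflammatory genes. Inside a cell the supply of active hormone is set by a pair of enzymes with opposite action, 1 that regenerates it (Hsd11b1) and 1 that inactivates it (Hsd11b2).

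Library totals lay between 15348192 and 18211663 counts in knockouts and between 15881625 and 19138507 in controls. Pck1 stood at 4.19 ± 2.10 CPM (counts normalised to library size by TMM, as all CPM values here; mean ± SD, n = 6) in knockouts and at 53.0 ± 17.8 in controls, and its highest knockout value, 7.32 CPM, was below the lowest control value, 34.5 CPM. Libraries also differed in transcripts of the exocrine pancreas, a tissue outside the colon. The summed CPM of 6 exocrine pancreas genes ranged from 34.7 to 1380 in knockouts and from 73.5 to 20105 in controls. The labelled tissue held epithelial markers at a mean log2 CPM of 10.3 to 10.5 in knockouts and 10.4 to 10.8 in controls, and 4 of these 7 were lower in knockouts at an unadjusted p below 0.05 (9.48% of all tested genes were). That count was 1 of 7 with scaling by library size only and without any 1 of knockout 6 and controls 1, 2 and 5.

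The receptor gene was slightly lower by mean in knockouts, with overlapping ranges. Nr3c1 (ENSMUSG00000024431) ranged from 61.6 through a median of 118 to 136 CPM in knockouts and from 92.0 through 131 to 135 CPM in controls. The lowest value belonged to knockout 2, while the other knockouts lay above the lowest control, control 1. Only 1 knockout lay above the control median. Its log2 fold change, knockout over control, was -0.18 (SE 0.16), with means of 110.5 ± 25.7 and 125 ± 16.5 CPM (SD, n = 6). It was -0.06 without knockout 2 and -0.26 without control 1.

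Hsd11b1 (ENSMUSG00000016194), which regenerates active hormone from its inert keto form, was higher in knockouts. It ranged from 24.9 through a median of 31.8 to 49.2 CPM in knockouts and from 8.04 through 15.1 to 25.6 CPM in controls. Of the 6 knockouts 4 lay above all controls, and knockouts 5 and 6 lay just under control 4, the highest control. The log2 fold change was 1.13 (SE 0.25), or 2.19-fold, with means of 34.6 ± 10.6 and 15.8 ± 5.72 CPM (SD, n = 6).

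Hsd11b2 (ENSMUSG00000031891), which inactivates the hormone and is known in colon epithelium for shielding the mineralocorticoid receptor, went the other way by a smaller amount. Its values ran from 105 through a median of 142 to 212 CPM in knockouts and from 127 through 181 to 299 CPM in controls. The groups overlapped, with 1 knockout below the lowest control, and the log2 fold change was -0.34 (SE 0.22). With single libraries left out it ran from -0.45 (without knockout 2) to -0.17 (without control 5).

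In TPM, the deposited unit that also divides by gene length, Hsd11b1 stood at 0.288 ± 0.0765 of the level of Hsd11b2 in knockouts, with a range of 0.176 to 0.405. In controls this ratio was 0.124 ± 0.0778 (SD, n = 6), with a range of 0.0352 to 0.257. The ranges overlapped, and the inactivating enzyme was the more abundant transcript in all 12 libraries.

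Zbtb16 (ENSMUSG00000066687) encodes PLZF, a BTB zinc finger transcription factor that glucocorticoids induce in many tissues and that also directs innate-like lymphocytes. Controls 1 to 6 held 1.97, 1.72, 4.53, 4.67, 1.46 and 4.31 CPM, and knockouts 1 to 6 held 12.5, 21.5, 20.6, 11.6, 11.8 and 10.2 CPM. Every knockout was above every control (0.882% of all tested genes separated in this direction), knockouts 2 and 3 stood well above the other 4 knockouts, and the controls fell into a lower and a higher set of 3 each. The log2 fold change was 2.24 (SE 0.33), a 4.73-fold higher level with means of 14.7 ± 5.0 and 3.11 ± 1.54 CPM (SD, n = 6). These values rest on 166 to 377 counts per knockout library and 24 to 80 per control library.

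**Figure D1:**
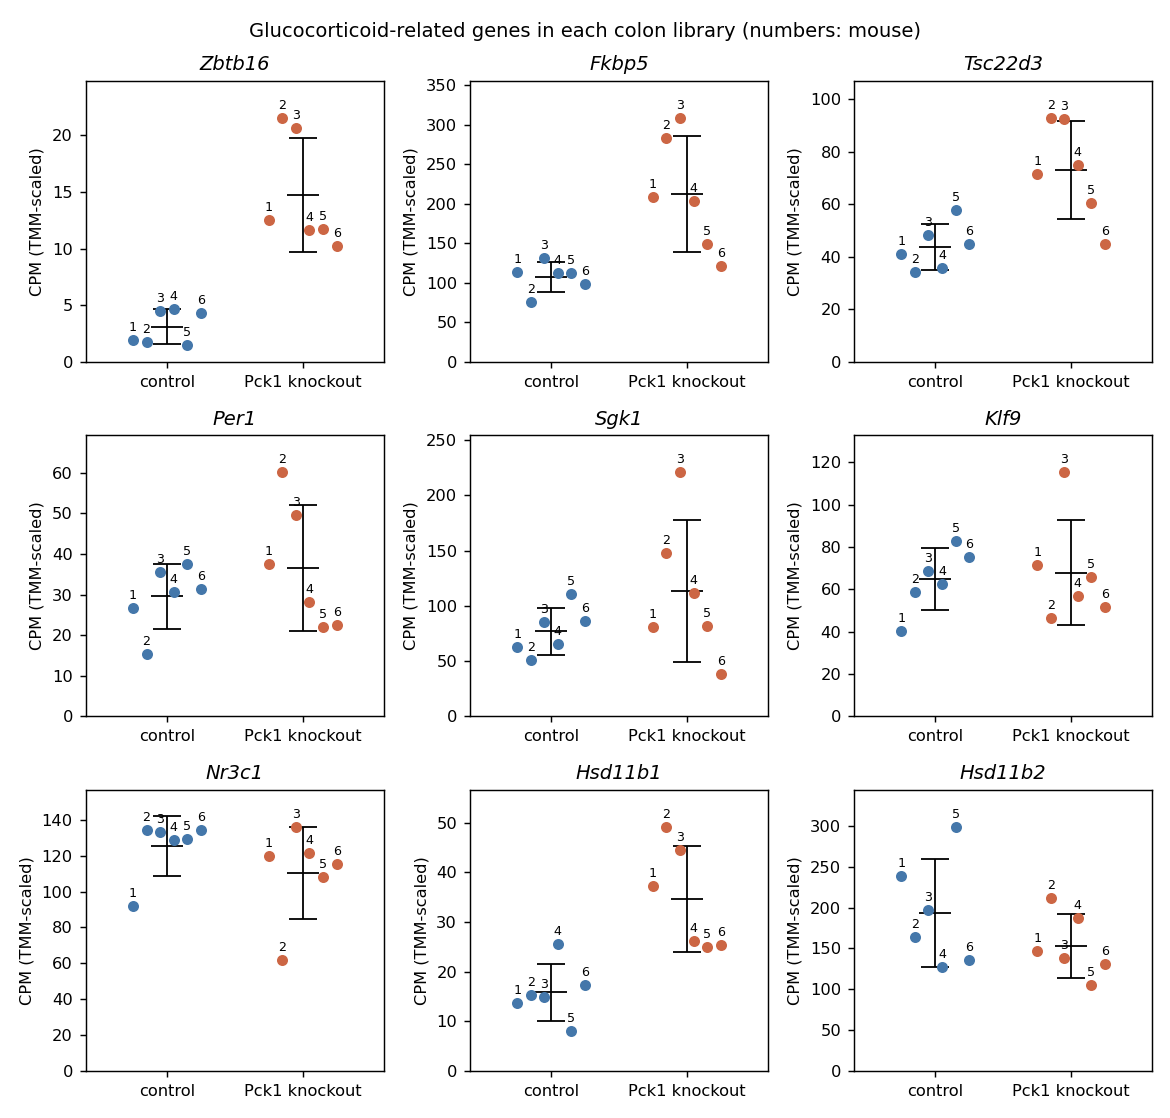
Level of each of the 9 genes in each library, in CPM scaled by TMM, with 1 numbered point per mouse and bars at the mean and 1 SD on either side for 6 controls (blue) and 6 knockouts (orange). For Zbtb16 the lowest knockout (10.2 CPM) is above the highest control (4.67 CPM), and for the other 8 genes the groups overlap.

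Fkbp5 (ENSMUSG00000024222), a chaperone of the receptor that is induced by the hormone and lowers the receptor's affinity for it, was at about double its control level. Knockouts ranged from 121 through a median of 206 to 309 CPM and controls from 75.9 through 113 to 131 CPM. Only knockout 6 was within the control range. The log2 fold change was 0.98 (SE 0.21), or 1.97-fold.

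Tsc22d3 (ENSMUSG00000031431) encodes GILZ, an anti-inflammatory leucine zipper protein. It ranged from 45.0 through a median of 73.3 to 93.0 CPM in knockouts and from 34.2 through 43.0 to 57.9 CPM in controls. Again 5 of 6 knockouts were above all controls, and the log2 fold change was 0.74 (SE 0.18), or 1.67-fold.

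The remaining 3 induced genes overlapped far more. Sgk1 (ENSMUSG00000019970), a kinase that activates epithelial sodium transport, ranged from 38.2 through a median of 96.6 to 221 CPM in knockouts and from 51.3 through 75.5 to 111 CPM in controls. Knockouts thus spread beyond the controls on both sides, with 3 above the highest and 1 below the lowest. The log2 fold change was 0.56 (SE 0.33), or 0.26 without knockout 3 and 0.74 without knockout 6. Per1 (ENSMUSG00000020893), a clock repressor that the hormone induces, ranged from 22.0 through 32.8 to 60.1 CPM in knockouts and from 15.4 through 31.0 to 37.4 CPM in controls. Its log2 fold change was 0.31 (SE 0.27), or 0.11 without knockout 2, 0.18 without control 2, 0.21 without knockout 3 and 0.42 without knockout 5. Klf9 (ENSMUSG00000033863), a Krüppel-like transcription factor, ranged from 46.3 through 61.3 to 115 CPM in knockouts and from 40.6 through 65.6 to 82.8 CPM in controls, with a log2 fold change of 0.07 (SE 0.22). For Klf9, knockout 3 alone exceeded the controls, and the log2 fold change was -0.15 without it and -0.04 without control 1.

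Zbtb16 was the 1 gene of the 9 whose groups did not overlap, and the same gene was the 1 past an adjusted p of 0.05 in the edgeR quasi-likelihood fit with Benjamini-Hochberg adjustment. Among all tested genes 1.52% did not overlap and 0.0556% passed that threshold (0.0278% in each direction), and nothing is read from either count because this contrast entered the choice of the genes. In the authors' deposited table the log2 ratio of mean TPM was 2.19 for Zbtb16, 1.14 for Hsd11b1 and 1.02 for Fkbp5, and it was -0.12 for Nr3c1. Leaving out knockout 4 or control 4 brought Fkbp5, Tsc22d3 and Hsd11b1 past the threshold beside Zbtb16 (4 genes of 9), in fits that called 6.02% and 5.03% of all tested genes higher. Leaving out control 6 left Zbtb16 and Hsd11b1 (1.88% of all tested genes higher), and leaving out any other library left 0 of the 9. Such calls are no test of these genes either, because the same contrast entered their choice.

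**Figure D2:**
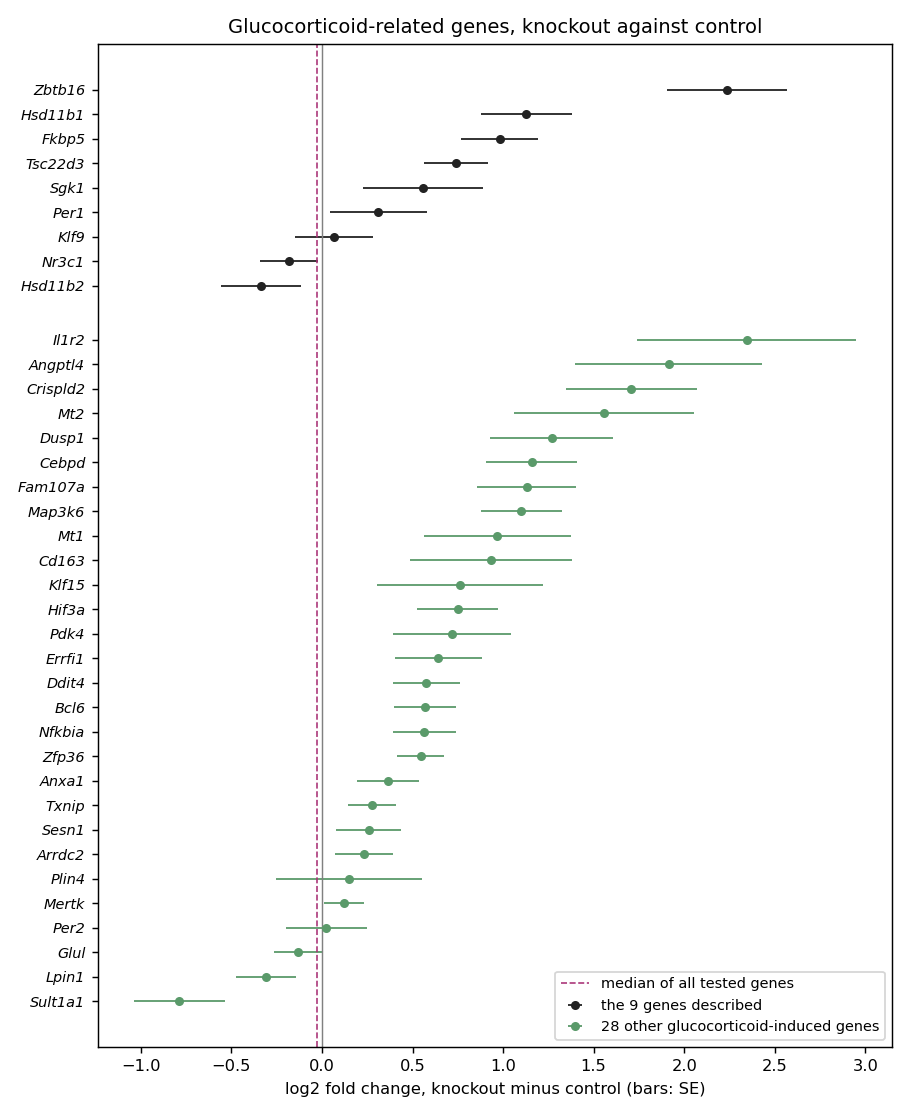
Log2 fold change, knockout over control, of the 9 genes (black) and of 28 other glucocorticoid-induced genes (green), with bars of 1 SE and a dashed line at the median of all tested genes, -0.03. Zbtb16 at 2.24 heads the 9, Nr3c1 (-0.18) and Hsd11b2 (-0.34) lie below 0 (54.9% of all tested genes do), and Il1r2 (2.34) heads the other list.

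In control colon the order of levels in TPM was Hsd11b2 at 189 ± 60.5, Sgk1 at 59.5, Fkbp5 at 55.0, Nr3c1 at 40.4, Tsc22d3 at 40.3, Klf9 at 26.01, Hsd11b1 at 20.1, Per1 at 14.1 and Zbtb16 at 1.34 (n = 6). Only Hsd11b2 against Sgk1 and Per1 against Zbtb16 were neighbours in that order with ranges that did not overlap. In knockouts Fkbp5 at 112 TPM stood second behind Hsd11b2 at 157, and Hsd11b1 at 44.2 stood above Nr3c1 at 37.3. There the gap between Per1 (18.4 TPM) and Zbtb16 (6.12 TPM) was the 1 gap without overlap. Zbtb16 therefore remained the least abundant of the 9 in both genotypes. In TPM per library it stood at 0.184 ± 0.121 of Nr3c1 in knockouts (0.109 to 0.425) and at 0.0328 ± 0.0173 in controls (0.0153 to 0.0539; SD, n = 6), without overlap.

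Promoter windows from RefSeq (GRCm38.p6, 250 bases before to 50 after the start) were present for 6 of the 9 genes, in 14 windows. Windows of a single chromosome had been left out before the genes were looked up, and Zbtb16, Hsd11b2 and Nr3c1 had none among the rest. Both strands were searched for the receptor palindrome (GNACA, any 3 bases, then TGTNC), for its half-site AGAACA and for the E-box CACGTG, the element of clock and other basic helix-loop-helix factors. Of 32851 windows, also without those of that chromosome, 0.475% held the palindrome, 18.97% the half-site and 7.15% the E-box. For each hormone-induced gene with a match, the window with the most matches is given here (4 genes), with matches in capitals, each read 5′ to 3′ on the gene's strand.
Sgk1, chr10:21993640-21993939, plus strand: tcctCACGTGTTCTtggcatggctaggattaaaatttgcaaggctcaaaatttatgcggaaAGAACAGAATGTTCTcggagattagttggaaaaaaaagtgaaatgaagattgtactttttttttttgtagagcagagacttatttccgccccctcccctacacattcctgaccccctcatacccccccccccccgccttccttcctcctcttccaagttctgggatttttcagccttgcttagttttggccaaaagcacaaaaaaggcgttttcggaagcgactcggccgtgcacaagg
Tsc22d3, chrX:140600473-140600772, minus strand: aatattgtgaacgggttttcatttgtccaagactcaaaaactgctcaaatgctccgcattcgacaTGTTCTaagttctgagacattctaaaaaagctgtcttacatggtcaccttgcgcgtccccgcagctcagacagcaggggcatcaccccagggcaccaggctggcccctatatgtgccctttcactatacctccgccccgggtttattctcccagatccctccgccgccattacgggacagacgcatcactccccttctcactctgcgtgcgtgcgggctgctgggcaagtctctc
Fkbp5, chr17:28486100-28486399, minus strand: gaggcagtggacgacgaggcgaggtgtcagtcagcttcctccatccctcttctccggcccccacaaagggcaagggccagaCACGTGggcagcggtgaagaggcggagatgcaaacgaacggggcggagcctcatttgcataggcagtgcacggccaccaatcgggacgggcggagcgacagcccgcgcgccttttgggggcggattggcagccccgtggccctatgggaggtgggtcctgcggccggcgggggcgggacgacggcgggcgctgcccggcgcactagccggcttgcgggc
Per1, chr11:69098699-69098998, plus strand: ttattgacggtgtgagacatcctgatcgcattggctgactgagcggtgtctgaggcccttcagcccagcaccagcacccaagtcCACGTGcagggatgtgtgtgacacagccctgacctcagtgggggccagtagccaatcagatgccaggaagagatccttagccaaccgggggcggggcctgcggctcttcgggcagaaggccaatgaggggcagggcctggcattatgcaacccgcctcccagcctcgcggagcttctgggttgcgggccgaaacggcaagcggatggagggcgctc

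The Sgk1 window held the palindrome, GAACAGAATGTTC, whose first base lies at -188 from the start. Half-sites began at -242, -189 and -180, the last pair overlapping the palindrome and the first overlapping an E-box at -246. The Tsc22d3 window held a half-site at -185, the Fkbp5 window an E-box at -169 and the Per1 window an E-box at -166. A further 2 Sgk1 windows held a half-site each, and the windows of Klf9 and Hsd11b1 held none of the 3 motifs. A match describes these letters and is not evidence of binding, and an absent match says only that the window lacks them.

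The variation among mice of the same genotype was then compared between Zbtb16 and the other 8 genes, as deviations of log2 CPM from the mean of the own genotype over 12 libraries. Hsd11b1 varied with Zbtb16: Pearson r was 0.80 (exact permutation within genotypes over 518400 arrangements, two-sided p = 0.000424, adjusted p = 0.00340 over 8 genes), and Spearman rho was 0.77 (exact permutation p = 0.00979, adjusted p = 0.0783). Without controls 3 and 4, the 2 libraries farthest from the median of Zbtb16, r was 0.81 (exact permutation p = 0.0194). The rank measure missed the threshold after adjustment.

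None of the other 7 passed. The values were r = 0.58 for Per1 and 0.57 for Fkbp5 (adjusted exact permutation p = 0.101 for each), 0.43 for Sgk1 (adjusted p = 0.225), and 0.28 for Tsc22d3 (adjusted p = 0.467). Klf9 had r = 0.23 and Hsd11b2 -0.34. Nr3c1 had r = -0.09, or 0.42 without knockout 2. Without control 5, however, 5 of the 8 passed, namely Per1 (r = 0.84), Hsd11b1 (0.72), Fkbp5 (0.70), Sgk1 (0.69) and Tsc22d3 (0.63).

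**Figure D3:**
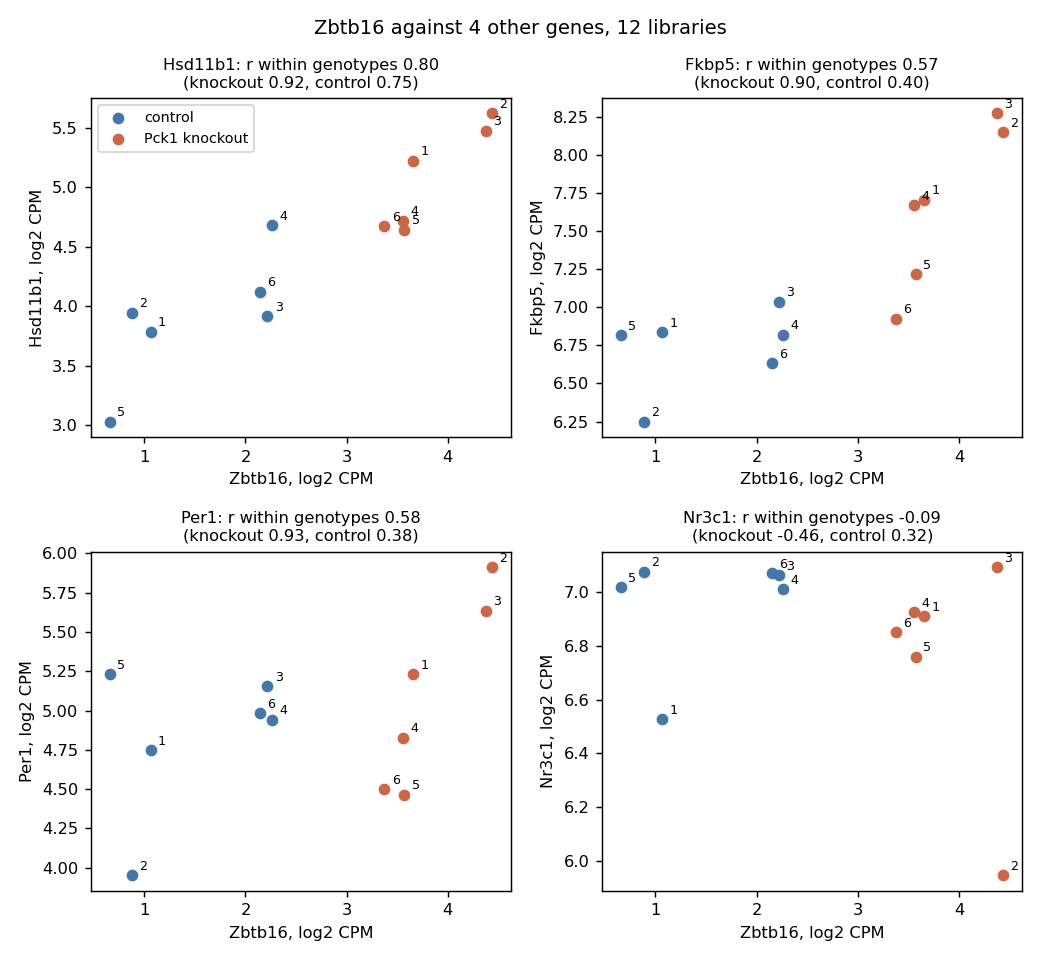
Zbtb16 (horizontal, log2 CPM) against Hsd11b1, Fkbp5, Per1 and Nr3c1 (vertical, log2 CPM), with 1 numbered point per mouse for 6 controls (blue) and 6 knockouts (orange). Hsd11b1 climbs with Zbtb16 within each genotype (r = 0.80 over both), and Nr3c1, with knockout 2 far below the rest, has r = -0.09, or 0.42 without that library.

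Within knockouts alone (n = 6, exact permutation, adjusted over 16 relations) r with Zbtb16 was 0.93 for Per1 and 0.92 for Hsd11b1 (adjusted p = 0.0444 for each), and 0.90 for Fkbp5, 0.86 for Tsc22d3 and 0.85 for Sgk1 (adjusted p of 0.0978, 0.1 and 0.0889). Spearman's rank correlation in knockouts was 0.83 for Per1 and for Hsd11b1 (exact permutation, adjusted p = 0.233 for each). Without knockouts 2 and 3, the highest for Zbtb16, 4 libraries remained and neither relation was past the threshold: r was 0.70 for Per1 (exact permutation p = 0.333) and 0.66 for Hsd11b1 (exact permutation p = 0.417). Within controls r was 0.75 for Hsd11b1 (exact permutation, adjusted p = 0.0978) and -0.71 for Hsd11b2 (adjusted p = 0.305), and it lay between -0.16 and 0.40 for the other 6. Whether the relations differ between the genotypes was not tested.

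After the data were seen, the induced genes were also compared with one another, over all 36 combinations of the 9 genes. Of these, 7 passed by Pearson r and 2 by both r and rho (exact permutation within genotypes, adjusted over 36). Tsc22d3 and Sgk1 varied together most closely, with r = 0.94 (adjusted exact permutation p = 0.00146) and rho = 0.89 (adjusted p = 0.0197). Tsc22d3 and Per1 followed with r = 0.83 (adjusted exact permutation p = 0.0117) and rho = 0.91 (adjusted p = 0.0175). Without the 2 libraries farthest from the median, r was 0.87 for the former and 0.86 for the latter. The other 5 that passed by r were Fkbp5 with Per1 (0.90), with Sgk1 (0.87) and with Tsc22d3 (0.85), Zbtb16 with Hsd11b1 (0.80) and Per1 with Sgk1 (0.77). Klf9 and Nr3c1 had r = 0.71 (adjusted exact permutation p = 0.133), and no combination that included Hsd11b2 passed.

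By the same measure the 6 genes most like Zbtb16 among 13620 genes with a mean of at least 1 CPM were Kcnj15, a potassium channel gene, with r = 0.92, then C7, a complement component (0.91), Reg3b, an antimicrobial lectin of epithelium (0.91), the homeobox gene Hoxb7 (0.91), the neuronal gene Nrn1 (0.90) and the lymphatic growth factor gene Vegfd (0.90). They were picked for the highest r over 12 libraries, so no p is attached. Between genotypes, the log2 fold change was 2.22 (SE 0.59) for Kcnj15, 1.47 (SE 0.53) for Reg3b and 1.32 (SE 0.40) for C7, and it was 0.29 (SE 0.56) for Hoxb7. Of the 8 other members, Hsd11b1 had an r higher than 99.3% of all tested genes, Per1 than 92.7% and Fkbp5 than 92.3%.

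In bulk tissue, more cells of a type and more RNA per cell cannot be told apart, so marker lists were set beside these values. Of 11 tested markers of innate and T lymphocytes (of 12) none was past an unadjusted p of 0.05 in edgeR (22.6% of all tested genes were). Their summed CPM was 64.0 to 86.2 in knockouts and 58.7 to 91.8 in controls, and Ncr1 was below the count filter. Other lists did differ at an unadjusted p below 0.05 in the direction of knockouts (13.1% of all tested genes did): 5 of 6 fibroblast, 4 of 5 endothelial, 4 of 6 macrophage, 4 of 6 neutrophil and 3 of 6 enteric neuron and glia markers. Smooth muscle markers included 2 of 6 and pancreas markers 1 of 6 that were lower at it (9.48% of all tested genes were). Adipocyte markers included 1 higher and 1 lower of 7. Of 6 skeletal muscle markers the 2 that could be tested were past an unadjusted p of 0.05 in neither direction. In edgeR and voom 0 markers of the 11 lists passed the adjusted threshold, while DESeq2, which called 7.13% of all genes it tested higher and 2.71% lower, called 5 fibroblast, 4 endothelial, 4 macrophage, 2 neutrophil and 2 neuron and glia markers higher, 1 adipocyte marker lower and 0 lymphocyte markers. The edgeR counts also moved with single libraries and with the scaling. Without control 4, edgeR called 4 endothelial, 4 neutrophil, 2 fibroblast, 1 macrophage and 1 neuron and glia marker higher (5.03% of all tested genes). Without knockout 4 it called 4 endothelial, 2 fibroblast, 2 neuron and glia, 1 macrophage and 1 neutrophil marker higher (6.02%). Without control 6 it called 3 fibroblast, 2 endothelial and 1 neuron and glia marker higher (1.88%). With scaling by library size only (1.6% of all tested genes higher and 0.313% lower) it called 2 endothelial, 1 fibroblast and 1 neuron and glia marker. The summed CPM of the fibroblast markers was 3506 to 8610 in knockouts and 2120 to 4408 in controls, and that of the endothelial markers 295 to 610 against 206 to 312. For macrophages it was 517 to 894 against 360 to 558, for neutrophils 112 to 837 against 28.3 to 383, and for neurons and glia 44.2 to 101 against 31.7 to 58.8. The part of these cell types in the genotype differences of the 9 genes was not tested.

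Within genotypes the neutrophil markers, by mean log2 CPM, varied with Hsd11b1: r was 0.92 and rho 0.89 (exact permutation, adjusted over 99 relations of 9 genes and 11 lists, p = 0.0309 for r and 0.108 for rho). The r was 0.93 within knockouts and 0.92 within controls, and without controls 4 and 5 it was 0.92 (exact permutation p = 0.00527). For Zbtb16 the relation with neutrophil markers had r = 0.78 and did not pass (adjusted exact permutation p = 0.0975). Zbtb16 also had r = 0.69 with fibroblast and 0.67 with endothelial markers (adjusted exact permutation p = 0.297 and 0.230). Without controls 3 and 4, its r was 0.88 with fibroblast, 0.83 with endothelial and 0.80 with neutrophil markers. Hsd11b1 had r = 0.73 with fibroblast and 0.67 with endothelial markers (adjusted exact permutation p = 0.101 and 0.230). The relation with neutrophil markers was weaker in value for Per1 (0.50), Fkbp5 (0.43), Sgk1 (0.20) and Tsc22d3 (0.07). For these genes in the same order, r was 0.86, 0.67, 0.45 and 0.55 within knockouts. Within controls it was 0.09, 0.07, -0.23 and -0.52, and the difference between genotypes was not tested. Hsd11b2 varied with smooth muscle markers (r = 0.89, adjusted exact permutation p = 0.0309; rho = 0.83, adjusted p = 0.127). Hsd11b1 with neutrophil markers and Hsd11b2 with smooth muscle markers were the 2 of the 99 relations that passed by r, and 0 passed by rho. The 99 relations were added after the data were seen.

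**Figure D4:**
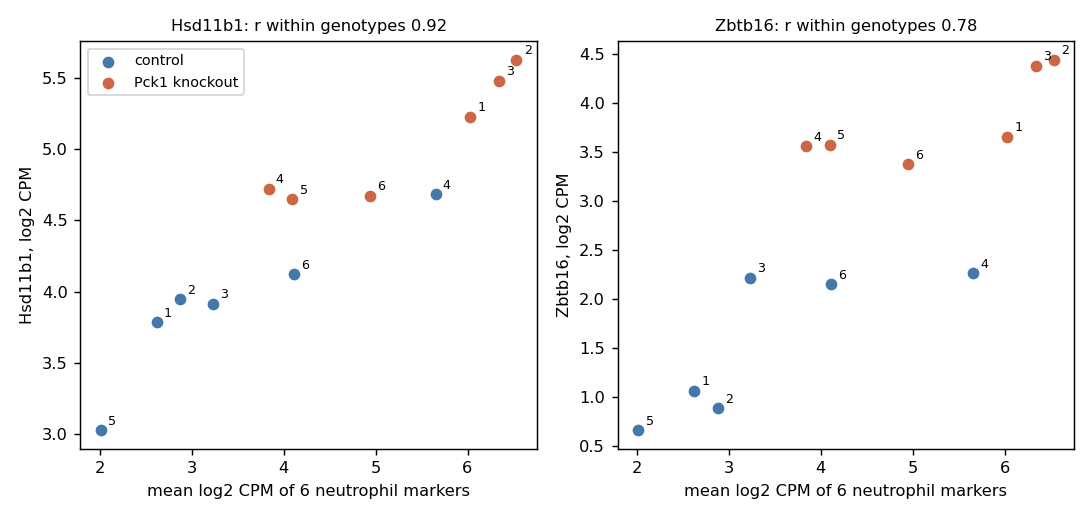
Mean log2 CPM of 6 neutrophil markers (horizontal) against Hsd11b1 and Zbtb16 (vertical, log2 CPM), with 1 numbered point per mouse for 6 controls (blue) and 6 knockouts (orange). Hsd11b1 has r = 0.92 with the markers within genotypes, and Zbtb16 has r = 0.78. The marker means run from 3.84 to 6.53 in knockouts and from 2.02 to 5.65 in controls. Whether Zbtb16 differs between genotypes at equal marker level was not tested.

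Genes of the pathway outside the 9 were read from further lists, and the median log2 fold change of all tested genes was -0.03. Among 28 other glucocorticoid-induced genes 25 had a log2 fold change above 0 (45.1% of all tested genes did), and the list's median was 0.61. In edgeR 0 passed the adjusted threshold, while 16 were higher and 1 lower at an unadjusted p below 0.05 (13.1% and 9.48% of all tested genes). Of the 3 most abundant, Txnip, an arrestin-like regulator of glucose uptake, had a log2 fold change of 0.28 (SE 0.13), Glul, glutamine synthetase, -0.13 (SE 0.13), and Anxa1, annexin A1, 0.36 (SE 0.17). Crispld2, a secreted protein, was the 1 gene of the list whose groups did not overlap (higher in 0.882% and lower in 0.639% of all tested genes), at 206 ± 138 CPM in knockouts and 63.2 ± 19.5 in controls (SD, n = 6). Il1r2, the decoy receptor for interleukin 1, had the highest fold change (2.34, SE 0.61), and Sult1a1, a sulfotransferase, the lowest (-0.79, SE 0.25). The choice of these last 3 was made with their values in view. The part of the neutrophil and other marker differences given above in the values of this list was not tested.

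The count of induced genes called moved with the tool, the scaling and 3 of the libraries. DESeq2 called 13 of the 28 higher and 1 lower (7.13% and 2.71% of all genes it tested), and limma voom, which called 0.208% of all tested genes higher and 0.132% lower, called 0 in either direction. With scaling by library size only, edgeR called 5 higher and 0 lower (1.6% and 0.313% of all tested genes). Without knockout 4, edgeR called 10 higher and 1 lower (6.02% and 2.78% of all tested genes), without control 4 it called 9 higher and 1 lower (5.03% and 1.93%), and without control 6 it called 4 higher and 0 lower (1.88% and 0.699%).

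Chaperones that hold the receptor included 4 of 9 that were higher and 0 that were lower at an unadjusted p below 0.05 (13.1% and 9.48% of all tested genes), with a median of 0.49. Over 20 other settings 3 to 7 were higher, and the median was 0.26 without knockout 5. The most abundant were Hspa8 at 0.91 (SE 0.27), Hsp90aa1 at 0.62 (SE 0.44) and Hsp90ab1 at 0.36 (SE 0.21). The 10 coregulators had a median of -0.03, and 0 were past an unadjusted p of 0.05 (22.6% of all tested genes were), with Ncor1 at -0.04 (SE 0.10), Smarca4 at -0.06 (SE 0.11) and Ep300 at 0.06 (SE 0.07). Neither list held a gene past the adjusted threshold in edgeR or voom. DESeq2 called 3 chaperones higher and 0 coregulators (7.13% of all genes it tested were higher).

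Of 16 genes for steroid synthesis and handling, 9 were abundant enough to test, with 2 higher and 2 lower at an unadjusted p below 0.05 (13.1% and 9.48% of all tested genes) and a median of -0.32. Without knockout 4, 5 were lower. The adrenal-type enzymes Cyp11a1, Cyp11b1 and Cyp21a1 were below the count filter in this tissue. H6pd, which makes the cofactor used by the enzyme of Hsd11b1, stood at 119 ± 43.9 CPM in knockouts and 73.6 ± 13.4 in controls, a log2 fold change of 0.70 (SE 0.21), and Abcb1a, an efflux pump for steroids, stood at -0.67 (SE 0.29) and Cyp3a13 at -0.40 (SE 0.30). In the mineralocorticoid list, 2 of 9 tested genes were higher and 3 lower at that threshold (13.1% and 9.48% of all tested genes). Its receptor Nr3c2 stood at -0.60 (SE 0.14) and the sodium channel subunit Scnn1a at -0.70 (SE 0.18), while the 2 higher genes, the ubiquitin ligase Nedd4l and the kinase Wnk1, stood at 0.35 (SE 0.10) and 0.32 (SE 0.09). These 4 were chosen with their values in view. Atp1b1 stood at -0.28 (SE 0.11) and Slc9a3 at 0.23 (SE 0.19). In edgeR and voom 0 genes of either list passed the adjusted threshold, and DESeq2 called 1 higher and 1 lower in the first and 2 and 2 in the second. Without knockout 4 edgeR called the same numbers as DESeq2 in both lists. In the mineralocorticoid list it called 1 higher and 2 lower without control 4, 0 and 2 without control 6, and 1 and 1 with scaling by library size only. Over all tested genes, DESeq2 called 7.13% higher and 2.71% lower, and edgeR without knockout 4 called 6.02% and 2.78%. For edgeR these shares were 5.03% and 1.93% without control 4, and 1.88% and 0.699% without control 6. With scaling by library size only they were 1.6% and 0.313%.

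The other 19 genes of the BTB zinc finger family, to which Zbtb16 belongs, had a median of -0.09, with 2 higher (Bcl6 and Hic1, chosen after their values were seen) and 1 lower (Zbtb38, likewise) at an unadjusted p below 0.05 (13.1% and 9.48% of all tested genes). Their log2 fold changes ran from -0.26 to 0.57, under the 2.24 of Zbtb16. The most abundant were Zbtb7a at -0.12 (SE 0.10), Zbtb7b at -0.09 (SE 0.10) and Zbtb4 at 0.19 (SE 0.12). In edgeR and voom 0 passed the adjusted threshold, and DESeq2 called 1 higher (7.13% of all genes it tested). Without knockout 4 or control 4, edgeR also called 1 higher (6.02% and 5.03% of all tested genes).

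Among 16 clock genes, which share Per2 with the induced list, 3 were higher and 5 lower at an unadjusted p below 0.05 (13.1% and 9.48% of all tested genes), and the median was -0.27. The most abundant were Bhlhe40 at -0.03 (SE 0.12), Clock at -0.26 (SE 0.24) and Nr1d2 at -1.02 (SE 0.25). Of the rest, Nfil3 at 1.55 (SE 0.26) and Dbp at -1.76 (SE 0.48) were the extremes, while Per1 stood at 0.31. In edgeR 0 passed the adjusted threshold, and in voom 1 was higher (0.208% of all tested genes). DESeq2 called 2 in each direction (7.13% of all genes it tested higher and 2.71% lower). Without knockout 4 edgeR called 1 higher and 2 lower (6.02% and 2.78% of all tested genes), as it did without control 4 (5.03% and 1.93%). Without control 6 it called 1 higher (1.88%), and with scaling by library size only 1 in each direction (1.6% and 0.313%). The labels give no sampling hour, and its part in Per1 and these genes was not tested.

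The 13 tested genes, of 14 listed, that glucocorticoids typically repress in inflammation were all higher in value in knockouts, with a median of 1.70, and all 13 were so at an unadjusted p below 0.05 (13.1% of all tested genes were higher at it). Nos2, the inducible nitric oxide synthase, stood at 1.02 (SE 0.27), Mmp13, a collagenase, at 1.98 (SE 0.66), and Il1b, the interleukin 1 beta gene, at 1.76 (SE 0.47). Il1b is also a neutrophil gene, and the part of the neutrophil differences given above in these values was not tested. In edgeR and voom 0 of 13 passed the adjusted threshold, and DESeq2 called 9 (7.13% of all genes it tested were higher). In edgeR 9 passed without knockout 4 (6.02% of all tested genes higher) and 10 without control 4 (5.03%). There were 2 without control 6 (1.88%) and 1 with scaling by library size only (1.6%).

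**Figure D5:**
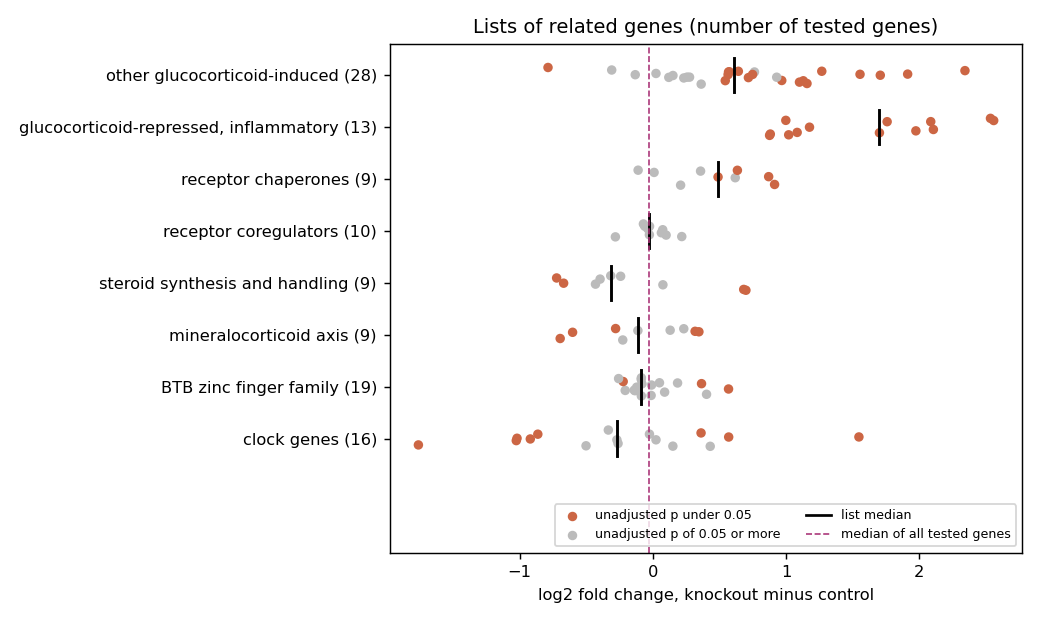
Log2 fold change, knockout over control, of each tested gene in the 8 pathway lists (1 point per gene, orange where the unadjusted p was under 0.05, black bar at the list's median), with a dashed line at the median of all tested genes, -0.03. The medians are 0.61 for the induced list and 1.70 for the list of repressed inflammatory genes, and they lie between -0.32 and 0.49 for the other 6.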

How the data were processed

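RNA-seq of whole colon from 12 mice was used. The authors deposited 1 table with a whole-number count and a TPM per gene and library, per the file headers, and their mean TPM per group, with 0 columns of other samples. The deposited log2 fold change is the log2 ratio of mean TPM, per the file headers; the deposited p-values were not used. The submitters' processing notes list GRCm38, mm10 and mm39 without roles, and the aligner, the counter and strand use were not given in the sources used here, so reads of overlapping genes cannot be told apart.

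Counts were fitted in R 4.3.3 with edgeR 4.0.16 (filterByExpr with a minimum count of 10 and a minimum total of 15, TMM, quasi-likelihood F test without covariates, Benjamini-Hochberg adjustment over 14393 genes, threshold 0.05). Levels used for correlations are log2 CPM with a prior count of 2. Alternatives were DESeq2 1.42.0, limma 3.58.1 voom, other scalings and filters, the replicate number as a block and each library left out. The procedure was tested on simulated data.

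The 9 genes and all 19 lists (195 entries, all in the table, 181 tested) were chosen with earlier results of these data known. From each list without a called gene the 3 most abundant by mean CPM are named, and further ones are marked in the text. Values of a listed gene that the rule would name are not reported here. The 36 combinations of members and the 99 relations with marker lists were added after the data were seen. The labels do not say that replicates differ in more than the mouse, so p-values measure the spread between these mice.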

Additional observations from a re-analysis of the deposited data

Results flagged for a closer look

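Of 18 groups of 6 libraries (9 genes in 2 genotypes), 2 held a library far from the others, where chance gives about 1 in 20 groups. Klf9 stood at 115 CPM in knockout 3, above the other knockouts, and Nr3c1 stood at 92.0 CPM in control 1, below the other controls. Knockout 3 was also among the 2 highest knockouts for Zbtb16, while knockout 2, the highest for Zbtb16, was the lowest knockout for Klf9 (46.3 CPM).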

How the results depend on the processing

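Over 20 other settings the log2 fold change kept its sign for 8 of the 9 genes, and Klf9 was below 0 in 2. Genes called over the whole table numbered 8. Of these, 4 were higher and 4 lower in knockouts. Scaling by DESeq2's size factors gave 52 (33 higher, 19 lower), by library size only 275 (230 higher, 45 lower), limma voom 49 (30 higher, 19 lower) and DESeq2 1511 (1095 higher, 416 lower). Upper quartile scaling and no count filter gave 7 each. Leaving out 1 library at a time gave between 2 and 1272, the 3 high counts being 1272 without knockout 4, 1007 without control 4 and 373 without control 6. The cause was not tested. Of the 9 genes, 4 were called higher under DESeq2 (7.13% of all genes it tested) and 4 under library size only (1.6% of all tested genes). Nothing is read from those counts, because this contrast entered the choice of the genes. Of the 8 genes tested against Zbtb16, 1 passed, with 0 by Spearman rho, 3 on log2(TPM + 1), 2 on log2(TPM + 0.1), and between 1 and 5 with each library left out. With the replicate number as a block, 1 gene was called over the table and 0 of the 9. The labels do not say whether the numbers pair the mice. Same-numbered deviations correlated between -0.50 and 0.08, with 0 of 6 above 0.1, and 0 of 12 libraries correlated best with their own number. No pairing showed in these values, which cannot exclude a weaker one. Depth limits Zbtb16 in controls, at 24 counts in the lowest library.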
